A study of Mus musculus with 3 samples.

Results

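The epidermal growth factor (EGF) receptors and their ligands were described across the cells of growing mouse long bone. The set held 9 genes, found by symbol among 55422 genes in the count tables. It comprised 3 receptors, namely *Egfr*, *Erbb2* and *Erbb3*, and 6 ligands, namely *Areg*, *Ereg*, *Hbegf*, *Tgfa*, *Btc* and *Egf*. Each symbol matched a single gene. On GRCm38 with the Gencode M21 annotation all 9 are protein-coding. *Egfr* lies on the plus strand of chromosome 11 at 16752203 to 16918158, and *Erbb2* on the same strand and chromosome at 98412470 to 98437716. *Erbb3* lies on the minus strand of chromosome 10 at 128567523 to 128589652. On chromosome 5, 3 of the ligand genes sit close together, with *Ereg* at 91074622 to 91093646, *Areg* at 91139599 to 91148432 and *Btc* at 91357261 to 91402994, the last on the minus strand and the others on the plus strand. *Hbegf* lies on the minus strand of chromosome 18 at 36504927 to 36515805, *Tgfa* on the plus strand of chromosome 6 at 86195223 to 86275719, and *Egf* on the minus strand of chromosome 3 at 129677565 to 129755316.

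EGF receptors are tyrosine kinases that pair in the cell membrane when a ligand binds. EGFR binds all 6 of these ligands, ERBB2 has no known ligand of its own and serves as a partner, and ERBB3 binds neuregulins and has little kinase activity. The ligands are made as membrane-anchored precursors and are released by ADAM proteases, and the paired receptors feed the RAS and ERK cascade, which switches on its own inhibitors of the Sprouty and DUSP families. In growing bone, EGFR signalling is known to act in the remodelling of growth plate cartilage. Septoclasts (SCs) are mononucleated cells at the chondro-osseous border that resorb the cartilage septa.

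All samples came from untreated mice on a C57BL/6 background at 3 weeks of age. Metaphyseal replicates 1 and 2 were 2 libraries of metaphyseal cells of C57BL/6J male mice, from which haematopoietic cells had been depleted with magnetic beads against lineage markers, CD45 and CD117. The third library held cells sorted for GFP from the metaphysis and epiphysis of mice heterozygous for the *Pdgfra-H2B-GFP* knock-in, in which the *Pdgfra* locus drives a nuclear GFP. The number of mice behind a library is not given in the sources used here, so the spread between libraries may be technical in part. The sort cannot be told apart from the mouse line, the added epiphysis or the lower limit of genes per cell. Hereafter, values for 3 libraries follow the order metaphyseal replicate 1, metaphyseal replicate 2 and *Pdgfra-GFP*.

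After filtering, 2382, 2004 and 11242 cells remained, with a median of 6257, 6426 and 5330 unique molecular identifiers (UMIs) per cell. The 2 metaphyseal libraries shared 0 cell barcodes, and they shared 9 and 10 barcodes with the *Pdgfra-GFP* library. Populations were set by marker genes that include no EGF receptor or ligand. The libraries held 10, 12 and 182 SCs, 76, 80 and 1088 metaphyseal mesenchymal stromal cells (mpMSCs), 645, 599 and 3852 diaphyseal mesenchymal stromal cells (dpMSCs), and 135, 119 and 960 osteoblasts (OBs). In addition, 649, 440 and 2144 cells passed no gate. Fibroblasts, superficial chondrocytes, late osteoblasts, macrophages and osteoclasts reached 10 cells only in the *Pdgfra-GFP* library, so their levels have no replicate. The SC gate used *Sstr2*, *Cd55* and *Otos*. *Mmp9*, which was not in the gate, stood at 5553, 6504 and 12011 CPM (UMIs of the gene per 1000000 UMIs) in SCs against 72.3, 90.4 and 94.4 CPM in mpMSCs. It was not particular to SCs, at 6169 CPM in osteoclasts of the *Pdgfra-GFP* library and 836, 887 and 308 CPM in neutrophils. The osteoclast genes *Ocstamp*, *Dcstamp* and *Oscar* were at 0 in the SCs of all 3 libraries. *Acp5* and *Ctsk*, also high in osteoclasts, were found in SCs, at 9.62, 8.15 and 8.25 CPM and at 231, 187 and 226 CPM. In mpMSCs they stood at 10.8, 7.53 and 10.9 CPM and at 193, 178 and 215 CPM.

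*Egfr* and *Hbegf* made up most of the family's transcripts in bone. Among the receptors, *Egfr* held 651, 549 and 2214 UMIs, or 76.2, 76.8 and 79.3% of all receptor UMIs. *Erbb2* held 198, 163 and 571 UMIs, and *Erbb3* 5, 3 and 6 UMIs. Among the ligands, *Hbegf*, which encodes heparin-binding EGF-like growth factor, held 344, 349 and 2696 UMIs, or 86.9, 86.6 and 87.7% of all ligand UMIs. *Tgfa*, encoding transforming growth factor alpha, held 41, 45 and 291 UMIs, and *Egf* itself 10, 9 and 53 UMIs. The remaining ligands were nearly absent, with 1, 0 and 9 UMIs of *Areg* (amphiregulin), 0, 0 and 13 of *Ereg* (epiregulin) and 0, 0 and 13 of *Btc* (betacellulin). At these depths a count of 0 allows a level of up to 0.157 CPM in metaphyseal replicate 1 and 0.182 CPM in metaphyseal replicate 2. The assay counts tags at the ends of transcripts, so these shares do not grow with gene length.

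The *Egfr* transcript was concentrated in SCs and dpMSCs. In SCs it reached 164, 179 and 97.1 CPM, from 17, 22 and 153 UMIs, with a mean of 147 CPM ± 43.7 (SD, n = 3). In dpMSCs it reached 129, 119 and 84.8 CPM, with a mean of 111 CPM ± 23.3 (SD, n = 3). The ranges of SCs and dpMSCs overlapped, although SCs were higher than dpMSCs within each library. Fibroblasts of the *Pdgfra-GFP* library followed at 60.7 CPM (95% Poisson interval 47.4 to 76.5). In mpMSCs *Egfr* stood at 36.2, 37.7 and 23.5 CPM, a mean of 32.4 CPM ± 7.78 (SD, n = 3), which overlapped mural cells at 27.3 CPM ± 8.17 (SD, n = 3). RNA in near-empty droplets, a measure of free RNA, held *Egfr* at 27.0, 37.4 and 23.8 CPM, close to the level in mpMSCs. Because *Egfr* is listed as a marker of SCs, its level there is given as a description, with no test.

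Below these populations *Egfr* was scarce. Superficial chondrocytes held 14.8 CPM in the *Pdgfra-GFP* library, OBs 3.24 CPM ± 1.46 (SD, n = 3) and growth-plate chondrocytes 2.47 CPM ± 2.92 (SD, n = 3). Metaphyseal endothelial cells (mpECs) held 0.837 CPM ± 0.566 (SD, n = 3). In arterial endothelial cells (aECs) not a single *Egfr* UMI was found in 43, 35 and 68 cells. At their depth a count of 0 allows a level of up to 9.26, 12.7 and 8.20 CPM, so aECs cannot be ranked below OBs or mpECs.

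**Figure D1:**
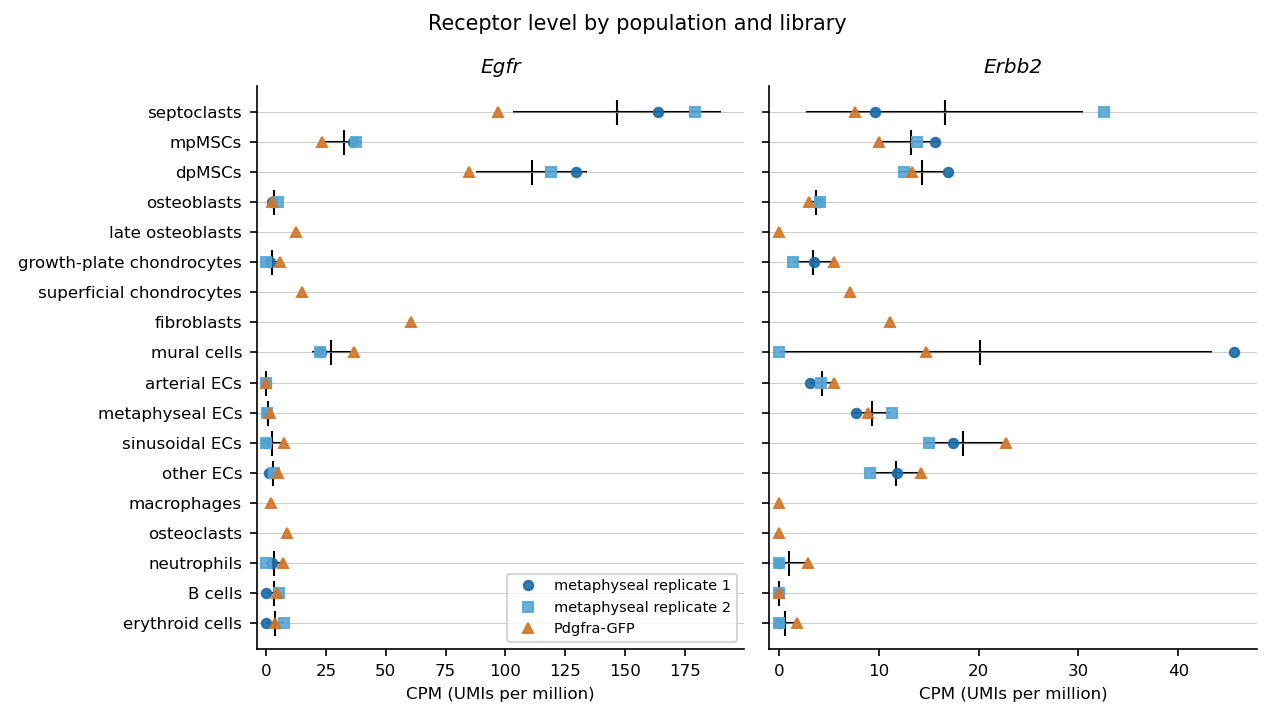
Level of *Egfr* and *Erbb2* (CPM) by population. Each point is the sum of a population's cells in 1 library, and lines give the mean and SD where the population reached 10 cells in all 3 libraries. *Egfr* peaks in SCs and dpMSCs and is near 0 in endothelial cells, whereas *Erbb2* stays below 50 CPM throughout.

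As shares of cells, SCs and dpMSCs both stood above mpMSCs in each library. Cells with 2000 UMIs or more were reduced at random to 2000 UMIs. In the *Pdgfra-GFP* library this left out 1 SC, 275 dpMSCs and 32 mpMSCs. *Egfr* was then detected in 20, 58.3 and 21.0% of SCs, in 22.9, 21.7 and 15.9% of dpMSCs and in 1.32, 7.5 and 4.17% of mpMSCs. SCs were thus slightly below dpMSCs in metaphyseal replicate 1 and above them in the other libraries. Erythroid cells, which should lack the gene, showed it in 0, 0 and 1.72%. Without thinning, 70, 75 and 47.3% of SCs and 51.0, 47.4 and 27.4% of dpMSCs held a UMI of *Egfr*. The SC shares of metaphyseal replicates 1 and 2 rest on 10 and 12 cells.

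Since SCs were rare, dpMSCs accounted for most *Egfr* UMIs, with 73.7, 76.0 and 55.7% of the total. SCs held 2.61, 4.01 and 6.91%. In the *Pdgfra-GFP* library, the 58 SCs with all 3 gate markers had *Egfr* at 135 CPM, and the 124 SCs with fewer had 76.5 CPM. *Egfr* was also elevated in cells that carried *Mmp9* without passing any gate. These 19, 9 and 127 cells, each with 5 or more *Mmp9* UMIs, had *Egfr* at 96.1, 57.2 and 68.5 CPM, against 9.02, 7.98 and 16.5 CPM in the ungated cells below that number. Among the mpMSCs of the *Pdgfra-GFP* library, 27 cells with 5 or more *Mmp9* UMIs had *Egfr* at 85.8 CPM and the others 21.6 CPM. In metaphyseal replicates 1 and 2 only 4 and 3 mpMSCs carried *Mmp9* to this extent, and they held no *Egfr* UMI. The *Mmp9* split was chosen after these values were seen.

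*Erbb2*, the partner receptor, was low and spread over many populations. Its levels in SCs were 9.62, 32.6 and 7.61 CPM, a mean of 16.6 CPM ± 13.9 (SD, n = 3), and the SCs of metaphyseal replicate 1 held a single UMI. Mural cells had the highest mean, 20.1 CPM, but their libraries spread from 0 to 45.6 CPM. Sinusoidal endothelial cells (sECs) had 18.4 CPM ± 3.95, dpMSCs 14.3 CPM ± 2.36 and mpMSCs 13.2 CPM ± 2.86 (SD, n = 3 for each). These means differed by less than the spread over SC libraries. OBs and growth-plate chondrocytes were lower at 3.71 CPM ± 0.619 and 3.45 CPM ± 2.08 (SD, n = 3 for each). No *Erbb2* UMI was found in B cells, where a count of 0 allows a level of up to 13.1, 15.6 and 13.3 CPM. Near-empty droplets held 12.6, 11.0 and 6.32 CPM, and many of these levels were no higher than that. The droplet level is a share of the droplets' own UMIs, and how much free RNA the cells held was not measured. In thinned dpMSCs, *Erbb2* was detected in 2.7, 1.54 and 2.99% of cells with an *Egfr* UMI and in 4.02, 1.49 and 2.43% of cells without, with no common direction over the libraries. *Erbb3* was too sparse for a level, since its highest count in a gated population of 10 or more cells was 2 UMIs, in fibroblasts. In metaphyseal replicate 1, 1 of the 5 *Erbb3* UMIs lay in ungated cells and the others in gated populations of fewer than 10 cells.

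*Hbegf* showed the opposite pattern to *Egfr* between endothelial cells and mpMSCs or dpMSCs, but not in OBs, which held little of either. Within populations seen in all libraries it was highest in aECs, at 80.3, 50.7 and 115 CPM, with a mean of 81.9 CPM ± 32.1 (SD, n = 3). In mpECs it stood at 43.7, 50.8 and 71.5 CPM, a mean of 55.3 CPM ± 14.4 (SD, n = 3), and the ranges of aECs and mpECs overlapped. In sECs it stood at 20.8, 18.5 and 10.1 CPM, below the range of the mpECs. Growth-plate chondrocytes held 22.5, 40.9 and 51.9 CPM, a mean of 38.4 CPM ± 14.9 (SD, n = 3), and mural cells 39.2 CPM ± 9.29 (SD, n = 3). In the 37 chondrocytes of metaphyseal replicate 2, a single cell held 13 of 30 *Hbegf* UMIs. The stroma held little, with 3.96 CPM ± 0.934 in mpMSCs, 2.55 CPM ± 0.234 in dpMSCs and 5.33 CPM ± 4.30 in OBs (SD, n = 3 for each). Near-empty droplets held 10.2, 12.3 and 23.9 CPM.

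In SCs, *Hbegf* rested on few UMIs outside the *Pdgfra-GFP* library. SCs held 1, 1 and 59 UMIs, or 9.62, 8.15 and 37.4 CPM. The *Pdgfra-GFP* value came from 25 of 182 cells. A single SC with 14 *Hbegf* UMIs held 23.7% of them, and the level without it was 28.8 CPM. That cell carried 468 *Mmp9* UMIs and no UMI of *Prg4*, a gene of joint-surface cells. In the same library, the 152 SCs with 5 or more *Mmp9* UMIs had *Hbegf* at 38.1 CPM and the other 30 had 33.8 CPM.

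**Figure D2:**
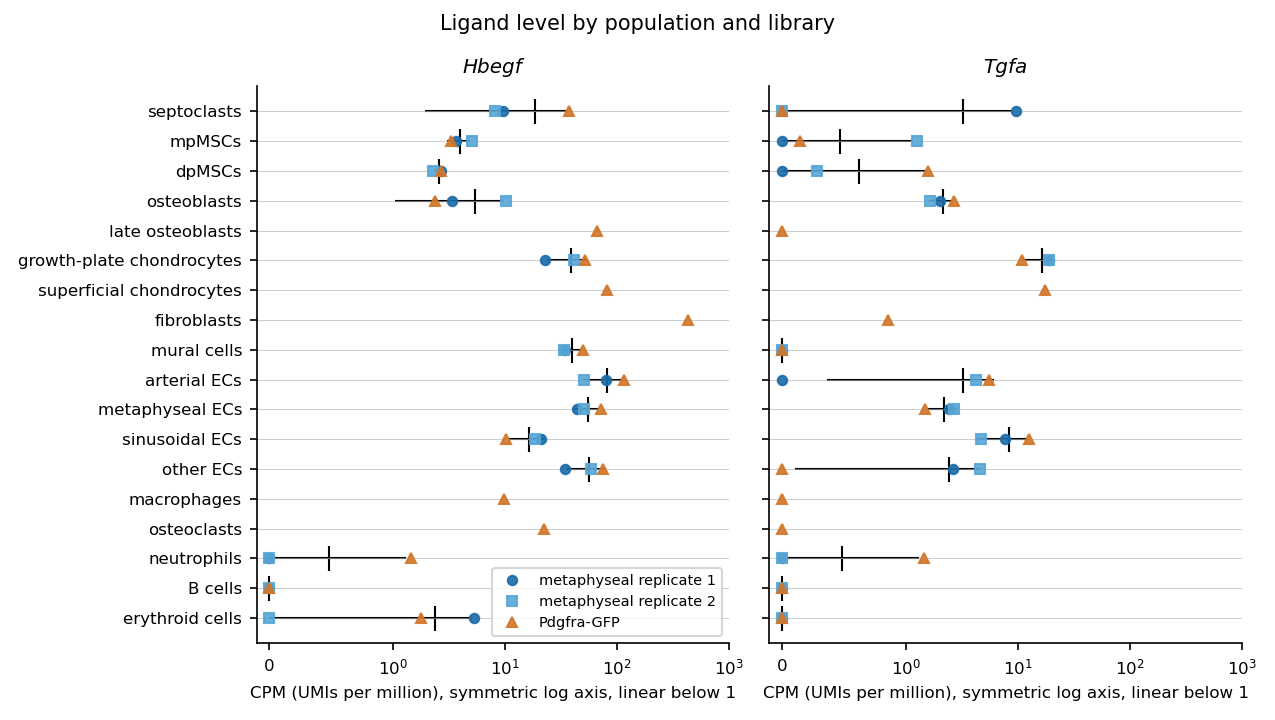
Level of *Hbegf* and *Tgfa* (CPM, scale linear near 0 and logarithmic above) by population. Each point is a population's sum in 1 library, with lines for the mean and SD. *Hbegf* is highest in fibroblasts of the *Pdgfra-GFP* library, at 427 CPM, where 13 of 181 cells held 450 of 500 UMIs. Next are aECs, at a mean of 81.9 CPM, whereas *Tgfa* is highest in both kinds of chondrocyte by mean level. The *Tgfa* range of sECs overlaps that of growth-plate chondrocytes.

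The highest *Hbegf* level of any population was in the 181 fibroblasts of the *Pdgfra-GFP* library, at 427 CPM (95% Poisson interval 391 to 466). It came from 500 UMIs in 41 cells, 54 of them in 1 cell. The 13 fibroblasts with 10 or more *Hbegf* UMIs held 450 of the 500, so the level was not that of most fibroblasts. The interval covers counting error only and leaves out this spread between cells. Requiring another fibroblast marker lowered the fibroblast level to 207 CPM. *Hbegf* did not rise steadily with the number of fibroblast markers. In ungated cells it was 6.84, 412 and 228 CPM with 0, 1 and 2 of these markers. In fibroblasts it was 566 CPM in the 100 cells with 3 markers and 267 CPM in the 72 with 4. The 9 fibroblasts with 5 markers held 1 *Hbegf* UMI. Superficial chondrocytes held 80.6 CPM. Late osteoblasts held 66.1 CPM, although 10 of 16 UMIs were in 1 cell and the level without that cell was 25.1 CPM.

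A small number of cells held the bulk of *Hbegf* in the *Pdgfra-GFP* library. There, 38 cells with 10 or more *Hbegf* UMIs accounted for 1371 of 2696 UMIs, or 50.9%, with up to 163 in a cell. Of these cells, 16 passed no gate and held 808 UMIs, and 13 were gated as fibroblasts and held 450 UMIs. In metaphyseal replicates 1 and 2 there were only 2 such cells each, with 6.40 and 7.16% of the *Hbegf* UMIs. Besides *Hbegf*, which chose the cells, the genes with the highest ratio to the rest of the library were *Htra4* (2646 CPM in these cells and 9.12 CPM in the rest), *Prg4* (34773 and 438 CPM) and *Has1* (940 and 2.80 CPM). *Prg4* encodes lubricin, the lubricating proteoglycan of joint surfaces, and *Has1* a hyaluronan synthase. *Prg4* was detected in 36 of the 38 cells. *Egfr* stood at 116 CPM in these cells and 29.1 CPM in the rest, and *Ptprc*, the pan-leukocyte gene, at 0. The definition by 10 UMIs was set after the values were seen, and these ratios are a description.

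Cells that passed no gate held 40.4, 30.1 and 34.0% of all *Hbegf* UMIs. In metaphyseal replicates 1 and 2, cells 1 marker short of the endothelial list held 45.3 and 53.3% of these ungated UMIs. Cells 1 marker short of the SC list held 38.1 and 25.7% of them. In the *Pdgfra-GFP* library, cells 1 marker short of the superficial-chondrocyte list held 90.7%, and 71.0% were in cells 1 marker short of the SC list. Most of these UMIs thus lay in cells with a marker of each list, although the lists share no gene. The SC gate marker *Cd55* was not particular to SCs in that library, at 278 CPM in fibroblasts and 287 CPM in SCs. *Sstr2* and *Otos* were at 0 in those fibroblasts. Within the gated SCs, the summed level of the superficial-chondrocyte markers *Prg4*, *Cilp* and *Cilp2* was 0, 16.3 and 28.6 CPM. In near-empty droplets it was 2.33, 3.65 and 679 CPM, so the SCs stood above free RNA in metaphyseal replicate 2 and below it in the others. The mpECs held 26.5 and 26.9% of all *Hbegf* UMIs in metaphyseal replicates 1 and 2 and 1.78% in the *Pdgfra-GFP* library, which was sorted for GFP.

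**Figure D3:**
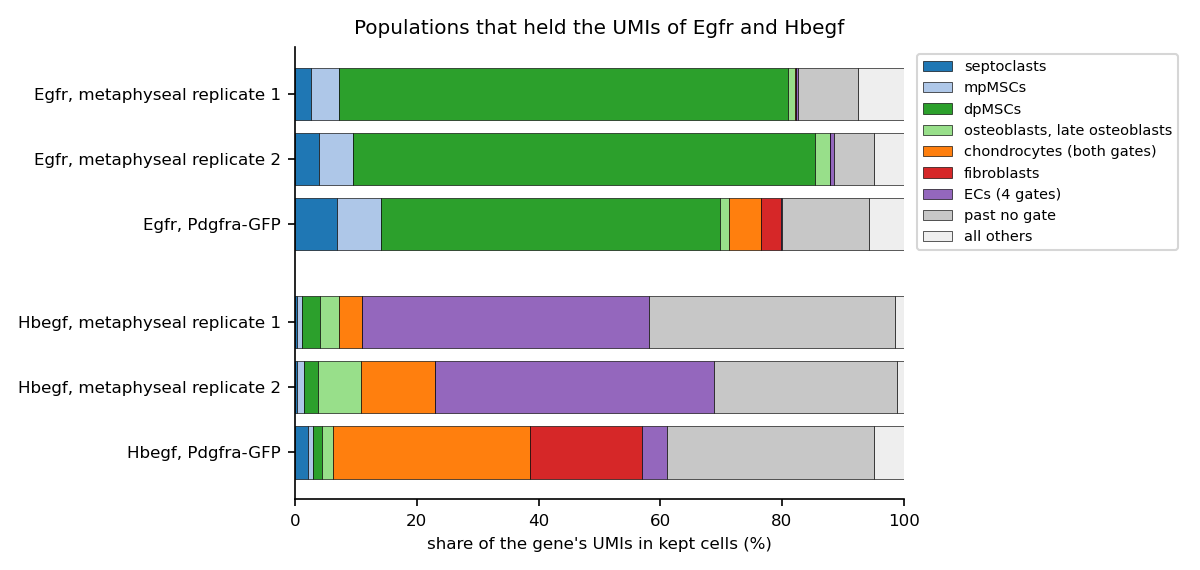
Share of all *Egfr* and *Hbegf* UMIs (percent) held by each population, as a stacked bar per library. The dpMSCs hold 73.7, 76.0 and 55.7% of *Egfr*, whereas *Hbegf* is split among endothelial cells, chondrocytes, fibroblasts and cells past no gate.

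*Tgfa* stood highest in chondrocytes by mean level. Growth-plate chondrocytes held 19.0, 19.1 and 10.8 CPM, a mean of 16.3 CPM ± 4.78 (SD, n = 3), and superficial chondrocytes 17.5 CPM. With thinned cells the growth-plate chondrocyte mean was 39.4 CPM. Next came sECs at 8.31 CPM ± 4.05 and aECs at 3.23 CPM ± 2.87 (SD, n = 3 for each). The sECs reached up to 12.7 CPM, so their range overlapped that of growth-plate chondrocytes. The mpECs held 2.20 CPM ± 0.632 and OBs 2.12 CPM ± 0.528 (SD, n = 3 for each). The mpMSCs and dpMSCs were below 2 CPM in every library. SCs held a single *Tgfa* UMI, in metaphyseal replicate 1. *Egf* did not exceed 3 CPM in any population seen in all libraries. *Areg*, *Ereg* and *Btc* reached 3, 2 and 2 UMIs in fibroblasts, and 7 of 13 *Ereg* UMIs were in 1 cell that passed more than 1 gate. Macrophages of the *Pdgfra-GFP* library, 78 in number, held 5 *Hbegf* UMIs, or 9.73 CPM, below the level in near-empty droplets of that library. The number of macrophages was 0 and 1 in the metaphyseal libraries, so they could not be tested.

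To compare populations, UMIs were summed per library and population, and differences were tested across 11092 genes with edgeR, taking the library as a block. Of the 9 genes, *Egfr*, *Erbb2* and *Hbegf* had enough counts to be tested. The first question was how SCs differ from mpMSCs, the stromal cells of the same region. Of all genes, 4.39% were called, 260 higher and 227 lower. *Hbegf* was higher in SCs by 3.04 on the log2 scale (SE 0.48, adjusted p = 9.39e-05). All 3 libraries showed this direction, but in metaphyseal replicates 1 and 2 it rested on 1 SC UMI each. The SC level there was below that of near-empty droplets. With the *Pdgfra-GFP* library left out this difference fell to 0.68 (adjusted p = 0.914), and adjusted p over all alternatives ranged from 1.48e-10 to 0.914. *Erbb2* showed a difference of -0.30 (SE 0.48, adjusted p = 0.861), lower in 2 of 3 libraries, and its sign turned without the *Pdgfra-GFP* library.

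Between the stromal populations, *Egfr* was the gene of the family that differed. In mpMSCs it was lower than in dpMSCs by -1.82 on the log2 scale (SE 0.27, adjusted p = 3.35e-06), in 3 of 3 libraries. The call held in 14 of 14 alternative settings. Here 25.8% of all genes were called. *Hbegf* differed by 0.38 (SE 0.48, adjusted p = 0.63) and *Erbb2* by -0.20 (SE 0.31, adjusted p = 0.713), and neither passed the test. The *Hbegf* level was nevertheless higher in mpMSCs in 3 of 3 libraries, at 3.62, 5.02 and 3.25 CPM against 2.69, 2.28 and 2.68 CPM, from 3 to 39 UMIs each. With 1 more marker per gate, *Hbegf* was higher in mpMSCs by 1.43 (adjusted p = 0.0297, range over alternatives 0.0297 to 0.839).

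OBs and chondrocytes both had less *Egfr* than mpMSCs. In OBs the log2 difference was -2.42 (SE 0.36, adjusted p = 2.49e-06), where 35.2% of all genes were called. In growth-plate chondrocytes it was -2.04 (SE 0.37, adjusted p = 4.3e-05), where 34.1% were called. With thinned cells the chondrocyte difference was -1.13 (adjusted p = 0.0604, range over alternatives 2.49e-09 to 0.0604). *Hbegf* was higher in chondrocytes than in mpMSCs by 4.09 (SE 0.39, adjusted p = 4.3e-10), in 3 of 3 libraries and in 14 of 14 alternatives. *Erbb2* differed by -0.84 in chondrocytes (SE 0.37, adjusted p = 0.0838). In OBs, *Hbegf* was called higher by 1.19 (adjusted p = 0.0463) and *Erbb2* lower by -0.90 (adjusted p = 0.0454), yet these calls were lost in 10 and 9 of 13 alternatives. In CPM, the *Hbegf* level of OBs was below that of mpMSCs in 2 of 3 libraries. These CPM lack the scaling between sums that the test applied, so their direction can differ from that of the tested difference. *Tgfa* did not pass the filter on low counts. Without that filter it was higher in chondrocytes than in mpMSCs by 6.04 on the log2 scale (SE 0.68, adjusted p = 1.75e-17), and in OBs by 3.88 (adjusted p = 4.04e-06). The size of both differences is uncertain, since the 1244 mpMSCs held only 2 *Tgfa* UMIs.

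Endothelial cells, as the mean of aECs, mpECs and sECs, were set against the mean of mpMSCs, dpMSCs and OBs. They had less *Egfr*, with a log2 difference of -6.01 (SE 0.55, adjusted p = 3.15e-11), and more *Hbegf*, with a difference of 3.37 (SE 0.25, adjusted p = 1.79e-13). Both held in 3 of 3 libraries and in 14 of 14 alternatives, although 55.8% of all genes were called in this comparison. *Erbb2* differed by -0.33 (SE 0.29, adjusted p = 0.356). Without the filter on low counts, *Tgfa* was higher in endothelial cells by 1.92 (SE 0.53, adjusted p = 0.00146). Within the endothelium, 9.29% of all genes were called between mpECs and sECs. *Hbegf* was higher in mpECs by 1.58 (SE 0.35, adjusted p = 0.00266), in 3 of 3 libraries. Without metaphyseal replicate 1 the difference was 1.92 with an adjusted p of 0.0553, the highest over the alternatives, whose lowest was 2.46e-05. *Egfr* and *Erbb2* showed differences of -0.98 (SE 1.41, adjusted p = 0.763) and -0.87 (SE 0.39, adjusted p = 0.178). The *Egfr* value rested on 3 UMIs each in mpECs and sECs.

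**Figure D4:**
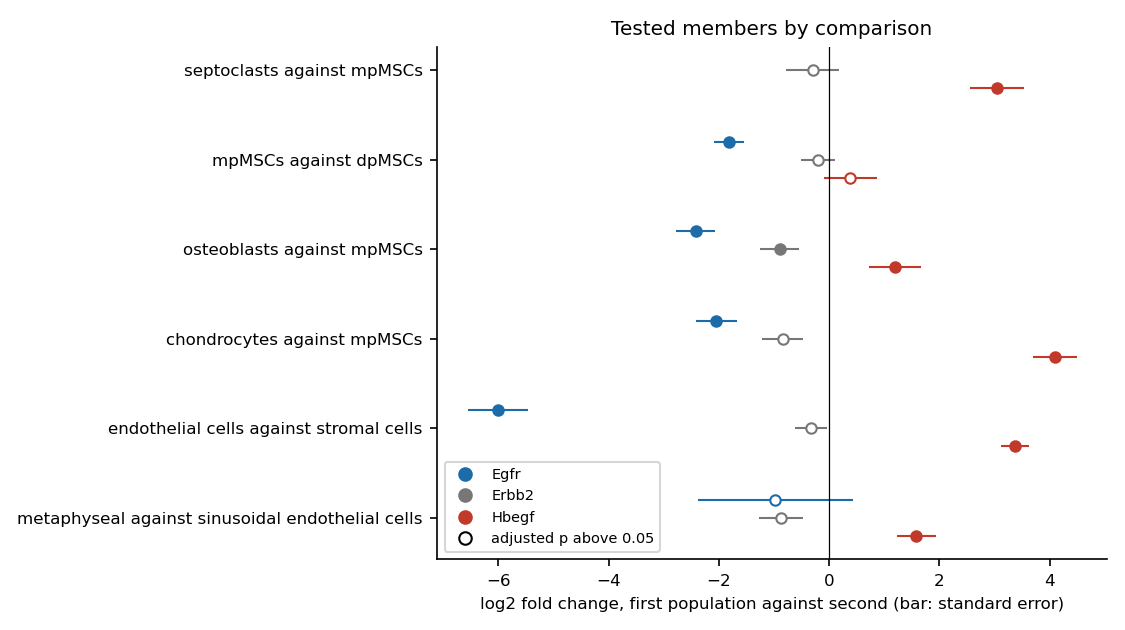
Log2 difference (± SE) of *Egfr*, *Erbb2* and *Hbegf* in 6 comparisons by edgeR on sums of 3 libraries. Open points had an adjusted p above 0.05, and *Egfr* in SCs against mpMSCs is left out. The largest *Egfr* difference is -6.01, in endothelial against stromal cells. For *Hbegf* it is 4.09, in chondrocytes against mpMSCs. The comparisons have different second populations, so these sizes do not rank populations by level.

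The other genes of the pathway comprised 47 genes in 5 roles, of which 39 could be tested. None of the 6 other receptors and ligands passed the filter. *Erbb4* had 1 UMI in all kept cells. The neuregulin gene *Nrg2* was found mainly in dpMSCs, at 14.8, 14.6 and 9.42 CPM, against 1.35 CPM ± 1.23 (SD, n = 3) in mpMSCs.

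In SCs against mpMSCs, 6 pathway genes were higher and 0 were lower, or 15.4% of those tested, against 4.39% of all genes. The targets and feedback genes of the ERK cascade gave 4 of these 6, with 4 of 14 higher (28.6%) and a median log2 difference of 1.07, whereas the median over all genes was -0.09. *Phlda1*, encoding a pleckstrin homology-like protein, stood at 808, 399 and 426 CPM in SCs and 71.1, 96.6 and 83.1 CPM in mpMSCs. No library of mpMSCs came near the SC levels, and the log2 difference was 2.47 (SE 0.32, adjusted p = 2.65e-06). *Spry4*, encoding a Sprouty inhibitor of ERK signalling, stood at 48.1, 32.6 and 14.6 CPM against 9.64, 7.53 and 4.88 CPM. Its log2 difference was 1.72 (SE 0.38, adjusted p = 0.00437), with adjusted p of 0.00115 to 0.331 over the alternatives, and leaving out any of the 3 libraries raised it above 0.05 (0.0602, 0.0696 and 0.166). *Dusp5*, encoding an ERK phosphatase, was higher by 2.47 (SE 0.67, adjusted p = 0.0253), a call that was lost in 4 of 10 alternatives, among them leaving out the *Pdgfra-GFP* library, where the difference was 0.99 (adjusted p = 0.797), and leaving out metaphyseal replicate 2 (adjusted p = 0.122).

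Of the 4 genes for ligand shedding, *Rhbdf2* was called in SCs. It encodes iRhom2, which carries the protease ADAM17 to the cell surface. Its levels were 0, 32.6 and 12.1 CPM in SCs and 2.41, 0 and 1.03 CPM in mpMSCs, higher in SCs in 2 of 3 libraries. The log2 difference was 3.45 (SE 0.67, adjusted p = 0.00108), but adjusted p was 0.244 without the *Pdgfra-GFP* library. *Adam17* and *Adam10*, the proteases themselves, differed by -0.12 and -0.03 (adjusted p = 0.92 and 0.998). None of the 7 tested receptor inhibitors and turnover genes was called. The count of 4 targets fell to 2 without metaphyseal replicate 2 or without the *Pdgfra-GFP* library, and to 1 with thinned cells.

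Several feedback genes were lower in mpMSCs than in dpMSCs. Among targets and feedback genes 0 of 14 were higher, 6 were lower and the other 8 did not pass the test, and over the whole pathway 1 was higher and 10 were lower, or 28.2% of those tested, near the 25.8% called over all genes. *Errfi1*, whose product binds and blocks the EGFR kinase, stood at 100, 128 and 28.1 CPM in mpMSCs and 699, 721 and 306 CPM in dpMSCs. The 2 ranges did not overlap, and the log2 difference was -2.87 (SE 0.39, adjusted p = 6.92e-07). *Spry1* stood at 72.3, 50.2 and 11.7 CPM against 333, 355 and 180 CPM, with a difference of -2.96 (SE 0.31, adjusted p = 4.32e-09). *Spry4* and *Spry2* followed with -1.67 and -1.58 (adjusted p = 9.29e-06 and 0.000105). These 4 calls held in every alternative that could be run. In SCs *Errfi1* stood at 67.4, 8.15 and 29.8 CPM, so that the populations with the most *Egfr* differed in this inhibitor, although the difference between SCs and dpMSCs was not tested.

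Early-response genes were higher in SCs and in dpMSCs than in mpMSCs in each library. Between SCs and dpMSCs they had no common direction over the libraries. The summed level of 7 such genes, *Fos*, *Fosb*, *Jun*, *Junb*, *Atf3*, *Egr1* and *Ier2*, was 5130, 4189 and 1853 CPM in SCs, 2078, 2326 and 863 CPM in mpMSCs and 5312, 4883 and 1487 CPM in dpMSCs. It was 14239, 11776 and 3894 CPM in growth-plate chondrocytes. This list was chosen after values were seen and shares *Egr1* with the targets. Its genes respond to tissue dissociation as well as to growth factors, and their part in the differences of the feedback genes was not tested.

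**Figure D5:**
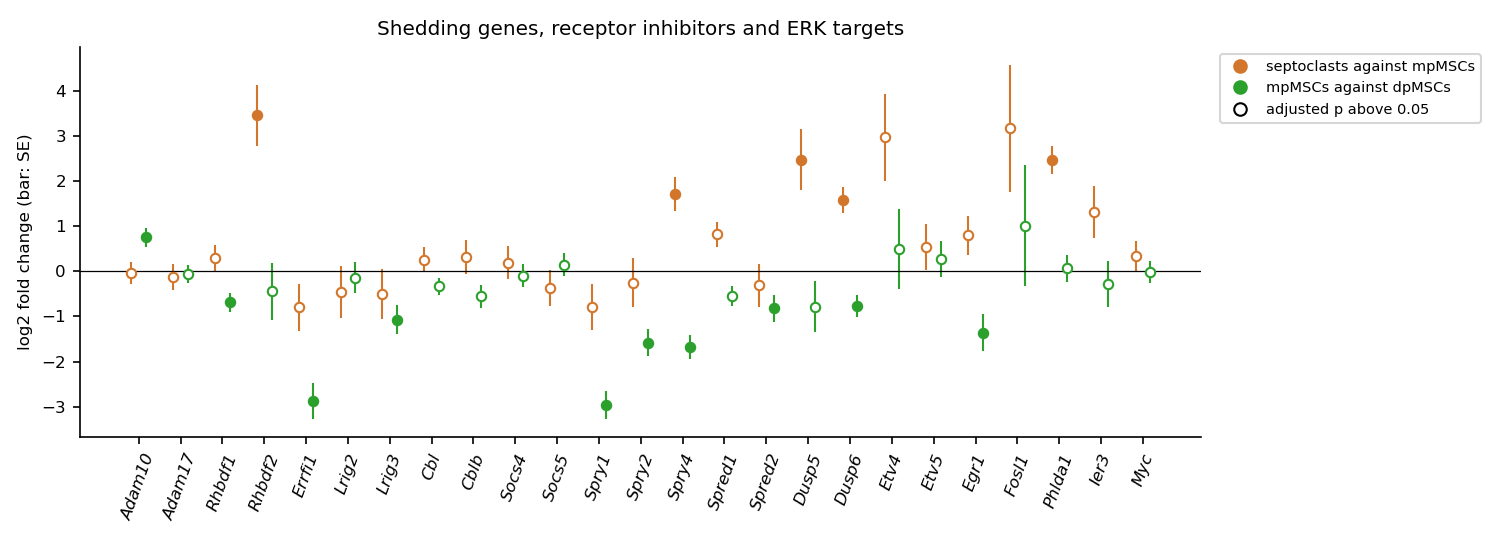
Log2 difference (± SE) of tested genes for ligand shedding, receptor inhibition and ERK feedback, for SCs against mpMSCs and for mpMSCs against dpMSCs. Filled points had an adjusted p of 0.05 or less. *Phlda1* (2.47) and *Spry4* (1.72) are higher in SCs, whereas *Spry1* (-2.96) and *Errfi1* (-2.87) are lower in mpMSCs than in dpMSCs.

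In OBs, 5 pathway genes were higher and 6 lower than in mpMSCs, or 28.2% of those tested, against 35.2% of all genes. The early-response genes *Ier3* and *Egr1* were higher by 1.98 (SE 0.51, adjusted p = 0.00236) and 1.83 (SE 0.41, adjusted p = 0.000519). Of the adaptors, *Grb2* was higher by 1.36 (adjusted p = 0.000171) and *Shc1* lower by -1.29 (adjusted p = 2.86e-05). In chondrocytes, 10 were higher and 7 lower, or 43.6% against 34.1% of all genes, with *Rhbdf2* higher by 3.72 (SE 0.56, adjusted p = 2.16e-06), *Fosl1* by 3.63 (adjusted p = 0.00651) and *Egr1* by 2.94 (SE 0.42, adjusted p = 7.83e-07). *Rhbdf2* reached 12.1, 8.19 and 11.9 CPM in chondrocytes. *Spry1* was lower in chondrocytes by -2.75 (SE 0.46, adjusted p = 1.12e-05).

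In endothelial against stromal cells, 13 pathway genes were higher and 12 lower, or 64.1% against 55.8% of all genes. *Errfi1* was lower by -3.53 (SE 0.31, adjusted p = 4.85e-12) and *Egr1* by -2.48 (SE 0.27, adjusted p = 7.71e-10). The ERK phosphatase gene *Dusp6* was higher by 2.7 (SE 0.14, adjusted p = 9.67e-18), at 136, 154 and 127 CPM in mpECs against 16.9, 21.3 and 18.2 CPM in mpMSCs. *Rhbdf2* was higher by 1.98 (SE 0.38, adjusted p = 3.87e-05). Between mpECs and sECs, 0 of 39 pathway genes were higher and 2 were lower in mpECs, or 5.13% against 9.29% of all genes. These were *Cblb*, encoding a ubiquitin ligase that turns over receptors (-1.47, adjusted p = 0.000237), and *Spry2* (-1.18, adjusted p = 0.0187).

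Across the 39 sums of 13 populations, the genes whose level followed *Egfr* most closely were *Plxdc2*, *Lhfp*, *Ednra*, *Loxl1* and *S1pr3*, with Pearson's r of 0.890, 0.880, 0.879, 0.878 and 0.878 among 6296 candidate genes. For *Hbegf* they were *Asap2*, *Dynlt3*, *Lims2*, *Hspb1* and *Trim47*, with r of 0.818, 0.816, 0.808, 0.808 and 0.805. These values describe likeness of level only. The sums of a library share its preparation and depth, and the populations are not replicates.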

How the data were processed

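The data were 3 droplet libraries (10x Genomics Chromium, V3 chemistry per the study's methods), of metaphyseal stromal cells in 2 replicates and *Pdgfra-GFP*+ cells in 1. The deposited values are raw UMI counts per gene and barcode, for which the authors trimmed reads with fastp (version 0.20) and mapped and counted them with STAR (version 2.7.3a, STARsolo) on mm10 with Gencode M23 plus an *H2B-GFP* sequence. The files totalled 25243314, 22082735 and 91747759 UMIs. Gene positions were taken from Gencode M21 on the same assembly.

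Following the study's limits, cells needed 1500 (metaphyseal) or 1000 (*Pdgfra-GFP*) genes or more, with mitochondrial UMIs up to 15% and ribosomal UMIs up to 30%. Cells were assigned to populations by marker lists: a marker counted when it had at least 1 UMI and at least 2 times its share in near-empty droplets (100 UMIs or fewer), and 2 of 3 or 3 of 4 to 6 markers were needed. Some gates took precedence over others. Cells past the SC, OB or late-osteoblast gate were not counted as mpMSCs. Late osteoblasts were not counted as OBs, and superficial chondrocytes were not counted as growth-plate chondrocytes. Cells that still passed more than 1 gate were kept apart. Scrublet (scanpy 1.11.5) marked doublets (1.05, 0.599 and 1.45% of cells, against expected rates of 1.91, 1.60 and 8.99%) and kept, and their removal was an alternative.

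For each population with 10 cells or more in a library, UMI counts were added up (39 sums, 87713 to 14544340 UMIs each) and tested with edgeR's quasi-likelihood test, with TMM scaling, filterByExpr, the library as a block and Benjamini-Hochberg adjustment over 11092 genes at 0.05. The study's methods state Wilcoxon tests over cells, which are not replicates, so sums were used instead. Populations of the same library come from the same preparation, which is where the block comes from. Deviations of SCs and of mpMSCs from their means correlated within a library by r = 0.0697, 0.0673 and 0.513 over 6363 genes. Other pairs of populations were not examined in this way. Intervals are 95% exact Poisson intervals and, like the limits for a count of 0 (3 counts), cover counting error only. Scripts were tested on simulated data. The comparison of macrophages with stromal cells was planned and could not be run, since the metaphyseal libraries held 0 and 1 macrophages.

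Named genes were the 9 members and, per comparison, up to 4 called pathway genes with the largest change outside the members, with the 5 genes most alike to *Egfr* and *Hbegf* by Pearson's r of log2(CPM + 1) at a mean of at least 20 CPM. *Adam10*, *Adam17*, *Erbb4* and *Nrg2* were named after their values were seen. The members and lists were chosen with earlier results of these data known. Alternatives were a stricter gate, doublets removed, thinned cells, other cell limits, DESeq2 and its size factors, no filter, no block, the contrast's populations alone and leaving out each library.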

Additional observations from a re-analysis of the deposited data

Results flagged for a closer look

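The difference in *Egfr* between mpECs and sECs ran opposite ways in the libraries. It was 0.481 and 0.541 CPM in the metaphyseal libraries and -6.11 CPM in the *Pdgfra-GFP* library, where 3 UMIs in 76 sECs decided the value. The difference between the libraries was not tested.

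The difference in *Erbb2* between endothelial and stromal cells was -2.21 and -0.204 CPM in the metaphyseal libraries and 4.04 CPM in the *Pdgfra-GFP* library. Here the endothelial mean also took in endothelial cells of no clear subtype, which the tested comparison left out. Without them the difference in metaphyseal replicate 2 turned in sign, so this contrast of libraries did not hold for the tested grouping. This difference between the libraries was not tested either.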

How the results depend on the processing

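Of 224 alternative values for the tested receptors and ligands, 195 kept their direction and their side of the threshold, 22 lost the call, 3 gained it and 4 turned in sign. *Erbb2* turned to 0.26 in SCs against mpMSCs and to 0.073 in mpMSCs against dpMSCs without the *Pdgfra-GFP* library (ranges over the libraries left out -0.61 to 0.26 and -0.29 to 0.073), and *Egfr* in mpECs against sECs turned to 1.80 with thinned cells and to 2.14 without that library (range -1.57 to 2.14). The cause was not tested. Of 65 alternative levels 8 moved beyond the spread. With 1 more marker per gate *Egfr* in fibroblasts was 46.7 CPM, *Hbegf* in fibroblasts 207 CPM and *Hbegf* in SCs 48.4 CPM. The SC value came from the *Pdgfra-GFP* library alone, where the main gate gave 37.4 CPM, and was set against the mean of 3 libraries. With cells thinned to 2000 UMIs *Egfr* was 219 CPM in SCs and 24.0 CPM in mpMSCs, *Hbegf* 466 CPM in fibroblasts and 56.9 CPM in chondrocytes, and *Tgfa* 39.4 CPM in chondrocytes. The thinned values came from 1 random draw. They rest on 10, 12 and 181 SCs and on 37, 37 and 1245 chondrocytes.

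The number of genes called moved more. In SCs against mpMSCs, 487 genes became 265 with thinned cells, 838 with no filter, and 194 to 325 when a library was left out. In mpMSCs against dpMSCs, 2857 became 1368 with thinned cells, 4382 with these populations alone and 1479 to 3130 without a library. OBs against mpMSCs went from 3906 to 1781 with thinned cells and 2340 to 3284 without a library, and chondrocytes from 3778 to 1796, to 2461 alone and 2497 to 2962. Endothelial against stromal cells went from 6188 to 3066 with thinned cells. The mpECs against sECs went from 1031 to 533 with the stricter gate, 581 with thinned cells, 1954 alone and 299 to 1638 without a library. Without the library as a replicate block, the pairing of populations within a library was ignored and the counts were 154, 1530, 2204, 2373 and 426 for SCs, mpMSCs against dpMSCs, OBs, chondrocytes and mpECs. The stricter gate and a minimum of 30 cells left SCs in 1 library, so neither gave a test there.

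Depth limits the SCs of the metaphyseal libraries, where 10 and 12 cells stand for them.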
